A study of Homo sapiens with 8 samples.

Results

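The T cell receptor segments of the human genome were followed across 4 places, the alpha/delta locus on chromosome 14, the beta locus on chromosome 7, a group of beta V orphons (copies outside the locus) on chromosome 9, and the gamma locus on chromosome 7. Members were all genes of the count table whose GENCODE symbol names a numbered V, J or C segment of a T cell receptor chain (or one with no further letters, such as TRAC) and that had at least 1 count in the 8 libraries. The table lists 222 such segments among 57500 genes, and 91 of them had a count. These were 74 of 136 V segments, 11 of 80 J segments and all 6 C segments, while the other 131 segments were listed at 0 in every library. Outside the rule were 4 short D segments, which had no count, and 7 V and J segments with a letter in place of a number. Of these 7, the gamma V pseudogene TRGVB had no count in Control and 1, 2, 6 and 3 counts in DZNep, TRGVA had 2 in Control and 1 in DZNep, and TRBVA, TRBVB, TRGJP, TRGJP1 and TRGJP2 had none. The study compared HEK293T cells treated with 100 µM 3-deazaneplanocin A (DZNep) for 48 h with cells given the vehicle for 48 h (Control), with 4 RNAseq libraries in each group, numbered 1 to 4. HEK293T is an established line from human embryonic kidney with an added large T antigen of the SV40 virus, and DZNep is an adenosine analog that blocks S-adenosylhomocysteine hydrolase and so lowers methylation in the cell. All libraries come from this 1 line, and the study describes them as biological replicates. The labels name DMEM as the medium, whereas the study's methods name RPMI.

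T cells build their receptor genes by cutting and joining the chromosome. The RAG1 and RAG2 proteins recognise a recombination signal beside each segment, made of a heptamer, a spacer and a nonamer, and join 1 V segment to 1 J segment, with a D segment between them in the beta and delta chains. The joined V region is then spliced to the C segment, giving the alpha and beta chains of most T cells or the gamma and delta chains of the others. Outside the lymphoid lineage the loci stay in their germline order, each V segment with a promoter of its own, and the segments are largely silent. Segment transcripts in such cells are called germline transcripts when they come from unrearranged DNA, a distinction that gene counts do not make.

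Library totals ranged from 25043058 (Control replicate 1) to 44902779 counts. Values are given as counts and as CPM, the usual rate of counts per library size, with library sizes scaled by TMM, edgeR's trimmed mean normalization. Markers of the labelled line were present. All 8 HEK293 cell markers were expressed, with summed levels of 1003 to 1529 CPM in Control and 1282 to 1426 CPM in DZNep. The 12 T cell markers summed to 1.39 to 2.75 CPM in Control and 3.61 to 5.57 CPM in DZNep. Of these, CD3D, CD3E, CD3G, CD2 and CD28 were at 0 in all 4 Control libraries. Of the 7 B cell markers, summing to 4.49 to 5.33 CPM in Control and 3.30 to 4.69 CPM in DZNep, MS4A1 was at 0 throughout, whereas CD79B had 0, 1, 0 and 2 counts in Control and 19, 12, 16 and 25 in DZNep and was called higher (log2 fold change 4.21, adjusted p = 0.00108). The 7 myeloid markers summed to 7.87 to 15.2 CPM in Control and 9.31 to 17.6 CPM in DZNep. Of these, LYZ had 25, 559, 25 and 22 counts in DZNep, so DZNep replicate 2 weighs heavily in that range. The 6 tested myeloid markers had a median log2 fold change of -0.08, and 0 were called. The part of the T cell markers and of CD79B in the segment results was not tested.

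V segments had several times more counts in DZNep-treated cells, while J segments stayed near 0 and C segments differed by locus. All V segments together had 47, 120, 87 and 72 counts in Control replicates 1 to 4 and 548, 603, 636 and 456 counts in DZNep replicates 1 to 4. The groups did not overlap, at 2.24 ± 0.416 CPM in Control and 13.4 ± 0.746 CPM in DZNep (SD, n = 4 each), a ratio of the means of 5.995. Within each replicate number, the ratio was 6.80, 4.45, 6.92 and 6.43. In these bulk libraries, more cells with segment RNA and more segment RNA per cell cannot be told apart.

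The alpha/delta locus held most of this signal. Its V segments summed to 0.615, 0.783, 0.672 and 0.317 CPM in the Control libraries and to 7.25, 6.78, 8.20 and 7.59 CPM in the DZNep libraries, a ratio of the means of 12.5. Beta V segments went from 0.0820, 0.0237, 0 and 0.260 CPM to 1.08, 1.28, 1.29 and 1.49 CPM, a ratio of 14.1. For the gamma V segments the values were 0.779, 0.997, 0.672 and 1.10 CPM in Control and 2.58, 2.59, 2.88 and 2.17 CPM in DZNep, a ratio of 2.88. The beta V orphons had 0.451, 1.05, 0.744 and 0.404 CPM in Control and 2.20, 2.04, 2.07 and 2.11 CPM in DZNep, a ratio of 3.18. At each of the 4 places every DZNep library lay above every Control library in its V sum. The sums leaned on single members to unequal degrees. TRAV8-2 gave 19.9% of the alpha/delta V counts and TRGV4 gave 27.4% of the gamma V counts, whereas TRBV20-1 gave 54.9% of the beta V counts and TRBV20OR9-2 gave 69.7% of those of the orphons. Without its top member, the difference of the means fell from 1.20 to 0.496 CPM for beta V and from 1.44 to 0.104 CPM for the orphons.

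**Figure D1:**
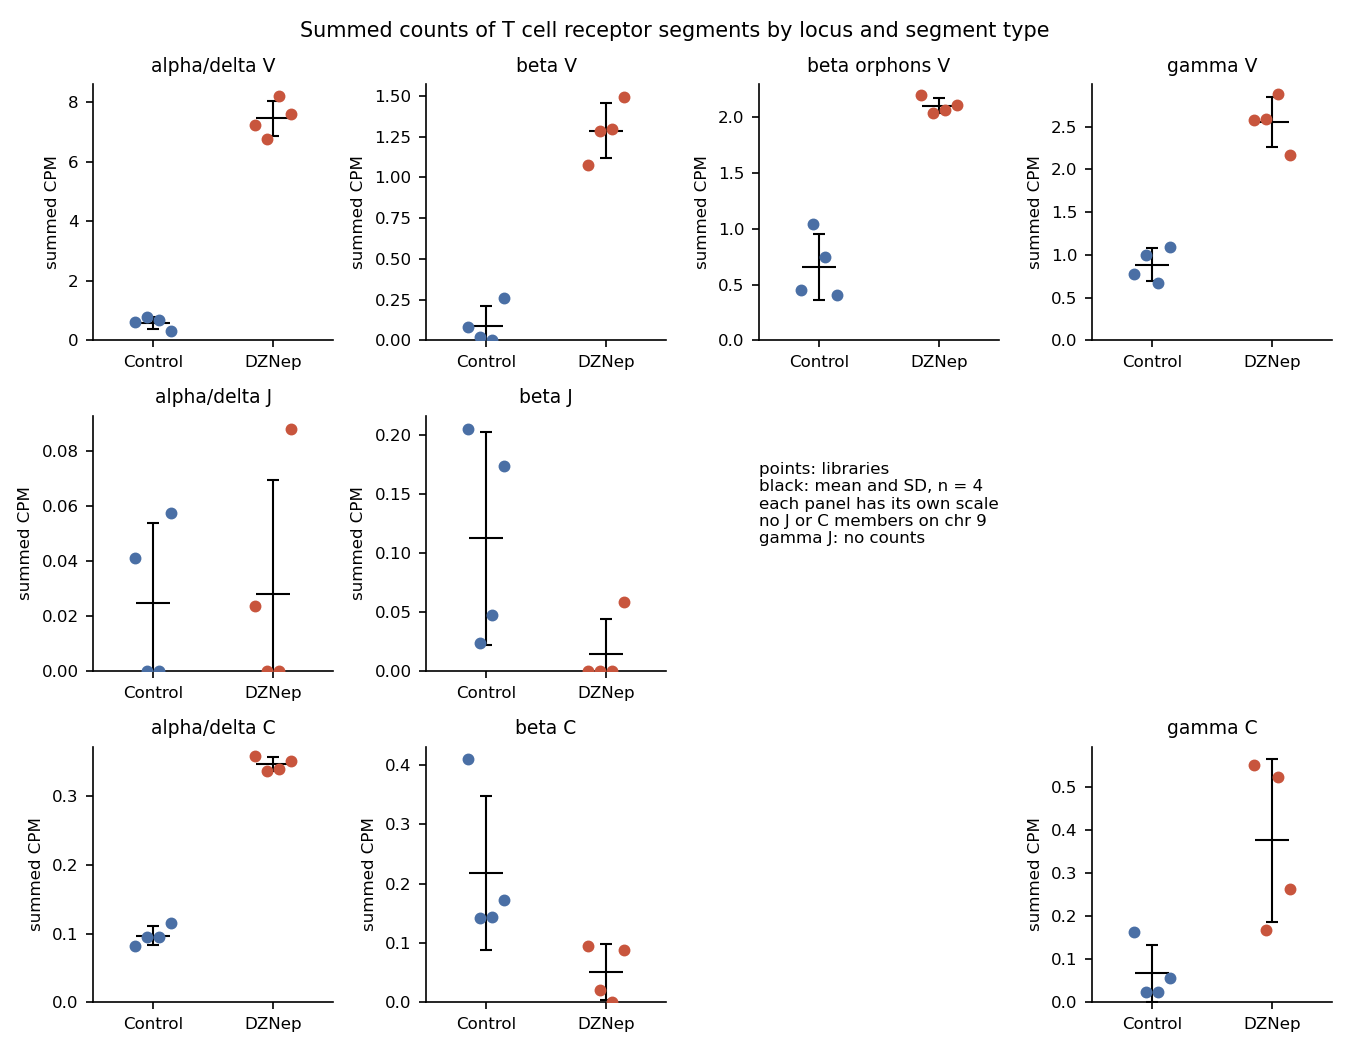
Summed CPM of the T cell receptor segments by locus and segment type, with 1 point for each library and the mean and SD of 4 libraries in black; each panel has its own vertical scale, starting at 0. V sums were higher in DZNep at all 4 places, the beta C sum was lower in DZNep, and the alpha/delta J sums overlapped.

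The J and C segments did not follow a single direction. J segments had 6, 1, 2 and 8 counts in the Control libraries and 1, 0, 0 and 5 in the DZNep libraries, so the groups overlapped. Of these, beta J segments accounted for 14 Control counts and 2 DZNep counts, alpha/delta J segments for 3 and 4, and the gamma J segments had none. The C segments together had 16, 11, 11 and 12 counts in Control and 42, 25, 38 and 24 counts in DZNep, and their CPM values overlapped. Split by locus, the C sums no longer overlapped. Alpha/delta C went from 0.0971 ± 0.0138 to 0.347 ± 0.0101 CPM and gamma C from 0.0674 ± 0.0664 to 0.376 ± 0.189 CPM, whereas beta C went from 0.217 ± 0.129 to 0.0512 ± 0.0478 CPM (SD, n = 4 each). These sums are descriptions and carry no test.

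The exons of the 3 segment types differ in length. The exons of the 222 segments listed had a median length of 380 bases for V, 60 bases for J and 869 bases for C, and the reads were 150 bp long. Per kilobase of exon, V segments had 5.98 counts in Control and 41.2 in DZNep, C segments 7.19 and 18.5, and J segments 3.65 and 1.29. On this scale the V level in the Control libraries was close to that of the C segments, and in DZNep it was the highest of the 3.

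More V segments were also seen at all. In Control 15, 17, 21 and 22 V segments had at least 1 count, against 54, 51, 50 and 41 in DZNep. Since the libraries differ in depth, the numbers that remain on average when every library is thinned to the depth of the shallowest were computed as well, giving 15.9 ± 1.25 in Control and 43.7 ± 3.82 in DZNep (SD, n = 4). The groups did not overlap on either scale. J segments with a count numbered 5, 1, 2 and 5 in Control and 1, 0, 0 and 3 in DZNep. Among all 91 members, 43 had no count in any Control library and 12 had none in any DZNep library, that is, 39 and 5 of the V segments and 3 and 7 of the J segments. Of all 40246 genes with a count, 12.9% had none in Control and 6.59% had none in DZNep.

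**Figure D2:**
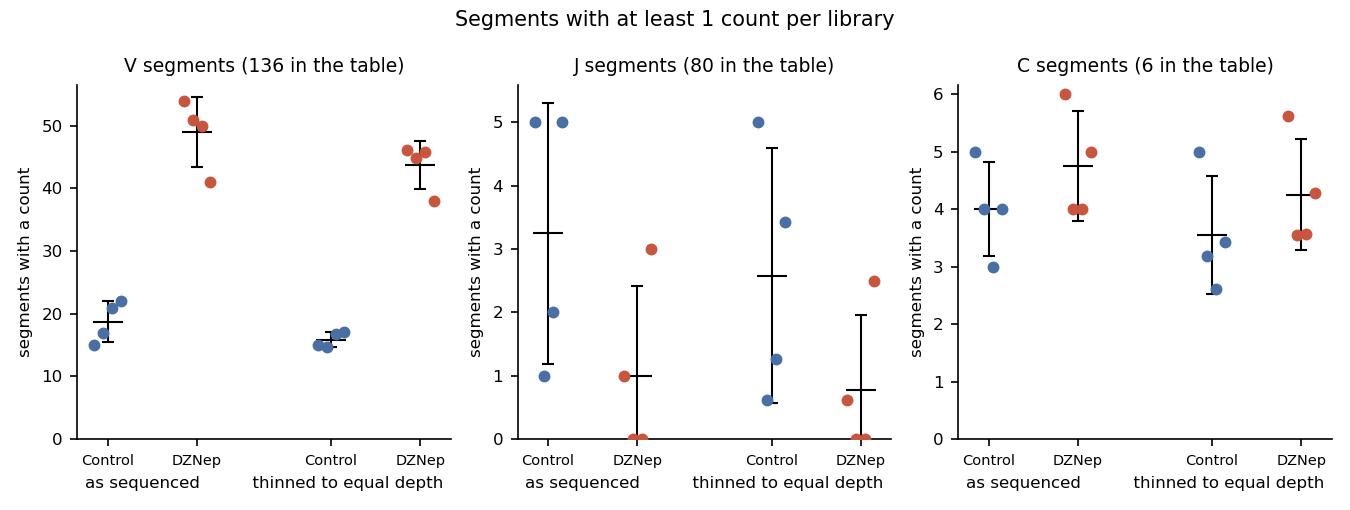
Number of V, J and C segments with at least 1 count in each library, as sequenced and after thinning to the depth of the shallowest library, with the mean and SD of 4 libraries in black. V segments with a count number 15 to 22 in Control and 41 to 54 in DZNep, and the J and C numbers overlap.

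The 3′ ends of the V segments with the clearest counts are given here because they show the recombination signal that a joined receptor gene no longer carries next to its V exon. Each line is read on the strand of the gene from GRCh38, with the last 30 bases of the V exon followed by the bases after it. Capitals mark the best match to the heptamer CACAGTG and to the nonamer ACAAAAACC, with a spacer of 22 to 24 bases, starting within 15 bases of the exon end. TRAV8-6 lies at chr14:21979091-21979158 (plus strand), TRAV8-2 at chr14:21847192-21847259 (plus), TRAV18 at chr14:22003644-22003712 (plus), TRAV19 at chr14:22008152-22008220 (plus), TRBV20-1 at chr7:142627370-142627438 (plus), TRBV20OR9-2 at chr9:33618479-33618547 (plus), TRGV4 at chr7:38353676-38353744 (minus) and TRGV9 at chr7:38316978-38317046 (minus).
TRAV8-6: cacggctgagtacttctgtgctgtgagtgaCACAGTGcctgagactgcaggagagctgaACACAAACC
TRAV8-2: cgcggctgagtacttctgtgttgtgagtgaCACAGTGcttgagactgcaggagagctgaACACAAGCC
TRAV18: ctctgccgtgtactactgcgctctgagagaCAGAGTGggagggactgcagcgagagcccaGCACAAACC
TRAV19: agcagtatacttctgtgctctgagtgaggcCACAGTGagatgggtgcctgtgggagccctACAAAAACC
TRBV20-1: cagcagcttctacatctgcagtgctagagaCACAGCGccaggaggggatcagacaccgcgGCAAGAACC
TRBV20OR9-2: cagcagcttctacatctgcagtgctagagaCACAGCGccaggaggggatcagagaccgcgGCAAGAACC
TRGV4: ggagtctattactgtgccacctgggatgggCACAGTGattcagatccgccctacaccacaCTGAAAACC
TRGV9: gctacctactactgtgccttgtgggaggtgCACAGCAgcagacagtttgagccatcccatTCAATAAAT

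TRAV19 matched both elements without a mismatch, while TRGV9 had 2 mismatches in the heptamer and 4 in the nonamer. The search, on the strand of the gene, found an exact heptamer beside 39 of the 74 V segments with counts and 21 of the 62 without. With up to 3 mismatches over both elements, it matched 45 (60.8%) and 27 (43.5%) of them. After the ends of 7680 other genes of chromosomes 7, 9 and 14, the same search matched 1.07%. The match describes the reference sequence and not the DNA of these cells. For the J side, the 2 J segments with the most counts in Control are shown whole because the reads on them were more frequent in Control. The signal before them is read in the opposite order, nonamer first, in capitals, and both lie on the plus strand, TRBJ2-2 at chr7:142796532-142796610 and TRBJ2-4 at chr7:142796970-142797047.
TRBJ2-2: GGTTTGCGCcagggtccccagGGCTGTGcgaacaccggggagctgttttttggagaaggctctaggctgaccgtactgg
TRBJ2-4: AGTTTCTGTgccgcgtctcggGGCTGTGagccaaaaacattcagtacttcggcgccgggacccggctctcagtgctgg

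Only 11 of the 91 members, all V segments, had enough counts for the expression filter (edgeR's filterByExpr), and 10 of these 11 were higher in DZNep and 0 were lower. Before adjustment, 10 had a p under 0.05 with the higher level in DZNep and 0 with the lower, and DESeq2 and limma each called 10 higher and 0 lower. A gene was called where its log2 fold change lay beyond 1 in either direction and its adjusted p lay under 0.05 in edgeR's quasi-likelihood test, with Benjamini-Hochberg adjustment over 19171 genes, of which 10.6% were called higher and 13.5% lower. A segment near 0 in Control passed the filter only through its DZNep counts, so the count of 10 is a description of the segments and no measure of how the 91 members behave. The median log2 fold change of the 11 was 2.43. It is raised by the same selection, so it cannot be compared with the -0.03 over all genes tested. The uncalled segment was TRBV26OR9-2, and all 10 called segments had every DZNep library above every Control library in CPM. Of all genes tested, called or not, 18.6% had this and 20.2% had every DZNep library below. The 10 were picked by their calls, so they cannot be compared with that share. Leaving out 1 library at a time gave 8 or 9 calls, the segments that lost theirs being TRGV4 and TRGV5.

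Of the 5 alpha/delta V segments tested, all were called higher. TRAV8-6 (ENSG00000211795, chr14:21978459-21979120), a member of the large TRAV8 family, had 0, 0, 0 and 1 counts in Control replicates 1 to 4 and 50, 78, 87 and 37 counts in DZNep. With a single Control count, the ratio of the pooled CPM was 215, with an exact 95% interval of 38.2 to 8522 that covers counting error only, and the adjusted p-value was 3.17e-05. TRAV8-2 (chr14:21846537-21847221) had 5, 19, 14 and 4 counts in Control and 50, 49, 66 and 58 in DZNep. It was the TRAV8 segment with the most Control counts, at 0.277 ± 0.147 CPM, and it rose to 1.36 ± 0.299 CPM (SD, n = 4 each), which corresponds to a fitted log2 fold change of 2.24 (SE 0.40, adjusted p = 0.00155). TRAV8-7 (chr14:22132553-22133034) had 0, 0, 2 and 0 counts in Control and 18, 15, 14 and 10 in DZNep, with a ratio of 24.3 (exact 95% interval 6.43 to 205.5, adjusted p = 0.000881).

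TRAV18 and TRAV19 lie next to each other in the locus. TRAV18 (chr14:22003106-22003673) had 3, 6, 3 and 2 counts in Control and 48, 67, 49 and 29 in DZNep. Its log2 fold change was 3.49 (SE 0.38, adjusted p = 9.16e-05). TRAV19 (chr14:22007512-22008181) had 5, 2, 1 and 1 counts in Control and 26, 20, 17 and 35 in DZNep, giving a log2 fold change of 3.14 (SE 0.64, adjusted p = 0.00305). The groups did not overlap for either, with the highest TRAV19 value in replicate 4 and the highest TRAV18 value in replicate 2.

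Related TRAV8 segments are close in sequence, so that reads with more than 1 match were not counted and the levels within the family are uncertain. Over the aligned V exons, TRAV8-2 and TRAV8-4 were identical at 95.6% of 295 bases, TRAV8-2 and TRAV8-6 at 88.5%, and TRAV8-3 and the pseudogene TRAV8-5 at 94.9% of 198. Among the 7 TRAV8 segments the most distant pair was TRAV8-1 and TRAV8-7, at 74.4%.

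At the beta locus 1 V segment stood out, and its copy on chromosome 9 behaved in the same direction. TRBV20-1 (chr7:142626649-142627399) had 0, 1, 0 and 4 counts in Control and 27, 28, 26 and 38 in DZNep, a log2 fold change of 4.26 (SE 0.70, adjusted p = 0.000957). TRBV20OR9-2 (chr9:33617845-33618508), an orphon with no J or C segment beside it in the table, had 7, 15, 7 and 14 counts in Control and 75, 62, 73 and 62 in DZNep, a log2 fold change of 2.43 (SE 0.32, adjusted p = 0.000274). Among the 11 tested segments TRBV20OR9-2 had the highest mean level per kilobase of exon in DZNep, at 4.90 ± 0.705 CPM, followed by TRAV8-6 at 2.63 ± 0.734 and TRAV18 at 2.57 ± 0.521 CPM, and TRGV5 had the lowest at 0.979 ± 0.284 CPM (SD, n = 4). TRAV8-6 and TRAV18 differed by less than their spread. The pair shared 95.7% of 304 aligned bases of the V exon, with 13 mismatches, so reads from either may be lost or shared. The first 200 bases of the V exon are shown to place the differences that let reads be assigned, with the 8 differing bases in capitals, from chr7:142627096-142627295 and chr9:33618205-33618404, both on the plus strand.
TRBV20-1: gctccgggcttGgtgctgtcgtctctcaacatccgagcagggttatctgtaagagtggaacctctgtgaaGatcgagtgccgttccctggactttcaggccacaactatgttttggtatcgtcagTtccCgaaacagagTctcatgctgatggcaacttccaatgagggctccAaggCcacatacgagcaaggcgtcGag
TRBV20OR9-2: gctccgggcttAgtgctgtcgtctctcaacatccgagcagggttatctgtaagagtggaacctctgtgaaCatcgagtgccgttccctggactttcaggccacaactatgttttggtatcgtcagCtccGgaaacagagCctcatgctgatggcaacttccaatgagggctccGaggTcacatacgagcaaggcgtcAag

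The other tested orphon, the pseudogene TRBV26OR9-2 (chr9:33695767-33696059), had 4, 29, 23 and 0 counts in Control and 14, 33, 14 and 8 in DZNep. Its log2 fold change was 0.13 (SE 0.76, adjusted p = 0.906), and the groups overlapped. In both groups its highest value was in replicate 2, and in both its lowest was in replicate 4. The 2 tested orphons thus differed in their own values although they lie on the same stretch of chromosome 9, a difference that was not tested.

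The 3 gamma V segments that passed the filter had the smallest fold changes among the 10 called segments. TRGV4 (chr7:38353715-38354517, minus strand) had 7, 10, 4 and 16 counts in Control and 32, 26, 25 and 33 in DZNep, a log2 fold change of 1.40 (SE 0.44, adjusted p = 0.0283). TRGV5 (chr7:38349355-38350022) had 3, 15, 13 and 6 counts in Control and 32, 22, 23 and 14 in DZNep, a log2 fold change of 1.11 (SE 0.40, adjusted p = 0.0468). TRGV5 lost its call without a filter on low counts (adjusted p = 0.109) and when any of 6 single libraries was left out, and TRGV4 lost its call when any of 5 was left out. TRGV5P (chr7:38345030-38345499), a pseudogene beside them, had 1, 7, 4 and 3 counts in Control and 13, 20, 21 and 9 in DZNep, a log2 fold change of 1.82 (SE 0.43, adjusted p = 0.00735). All 3 lie inside TRG-AS1, a long noncoding gene on the opposite strand, and whether reads were counted by strand is not given in the sources used here. TRG-AS1 had 97, 132, 133 and 116 counts in Control and 84, 68, 82 and 80 in DZNep, a log2 fold change of -0.84 (adjusted p = 0.0105). Its fitted change thus ran in the opposite direction to these 3 V segments, and it did not pass the fold threshold. TRGV6, which it also overlaps, had 6 counts in Control and 3 in DZNep.

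**Figure D3:**
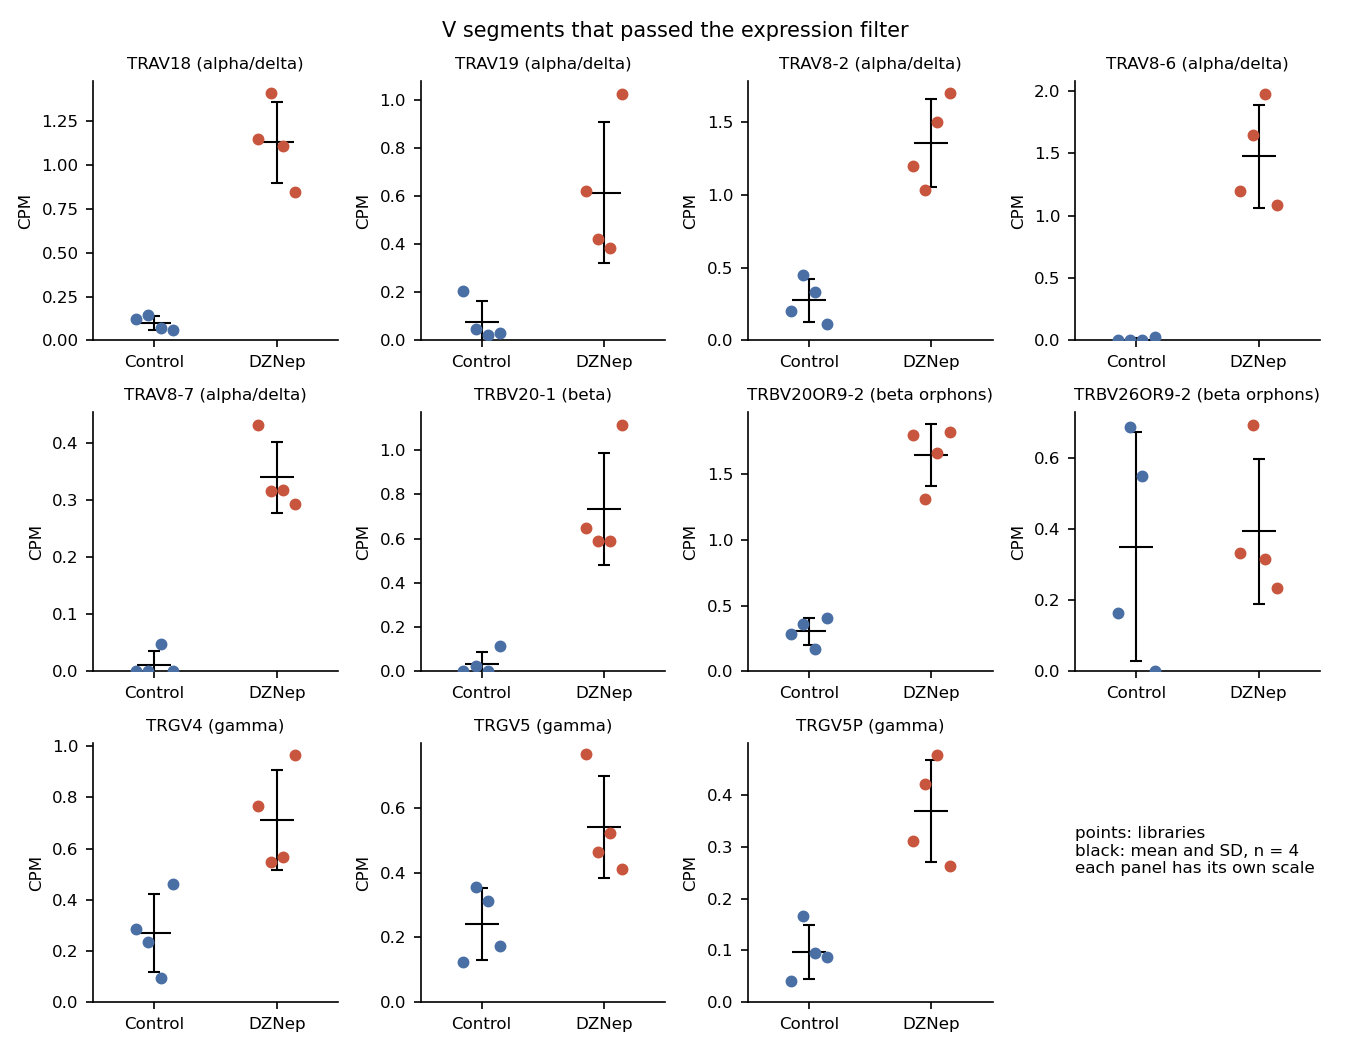
CPM of the 11 V segments that passed the expression filter, with 1 point for each library and the mean and SD of 4 libraries in black; each panel has its own vertical scale, starting at 0. The DZNep libraries lie above the Control libraries in 10 panels and overlap with them for TRBV26OR9-2.

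The other 80 members failed the filter, with a median of 5 counts over all 8 libraries, and were fitted together with all 40246 genes that had at least 1 count. Of these 80, 18 were called higher and 0 lower, beside 4.35% higher and 2.84% lower among the 21075 genes below the filter. Before adjustment, 28 had a p under 0.05 toward DZNep and 2 toward Control. DESeq2 called 13 of them higher and 1 lower, and with the replicate number added as a block edgeR called 13 higher and 0 lower. Members with few counts, such as TRBC1 and TRGC2, got no adjusted p in DESeq2, so it could not call those. Over all 91 members the fit without a filter called 27 higher and 0 lower, beside 7.37% and 7.67% of all genes fitted, whereas DESeq2 called 22 higher and 1 lower. The 27 comprised 16 of 36 alpha/delta V segments, 5 of 22 beta V segments, 1 of 5 orphons, 3 of 11 gamma V segments, 2 of 6 C segments and 0 of 11 J segments. With the replicate block 23 members were called higher, and of the 5 beta V segments only TRBV20-1 kept its call. Of the J segments, 1 had an unadjusted p under 0.05 in edgeR, with the lower level in DZNep. DESeq2 called 0, but it gave the beta J segments with counts no adjusted p and so could not call them. In CPM, 19 of the 80 members below the filter had all their DZNep values above the Control values and 2 had all of them below, beside 5.96% and 2.71% of the genes below the filter. V segments annotated as genes made up 23 of the 25 called V segments, out of 63 with counts, and V pseudogenes made up the other 2, out of 11 with counts.

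Of the V segments below the filter, TRGV9 and TRAV13-2 had the most one-sided counts. TRGV9 (chr7:38317017-38318861, minus strand), whose product pairs with a delta chain in the main gamma delta T cell population of human blood, had no count in Control and 7, 17, 22 and 3 counts in DZNep. Against a floor of 3 counts over the Control group it was at least 13.9-fold higher. TRAV13-2 (chr14:21918188-21918756) had no count in Control and 14, 14, 11 and 8 in DZNep, and was at least 13.4-fold higher. In the fit without a filter the adjusted p-values were 0.000593 for TRGV9 and 0.000237 for TRAV13-2.

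A run of other alpha V segments showed low counts of the same kind. TRAV8-4 had 0, 0, 1 and 0 counts in Control and 18, 4, 13 and 14 in DZNep, a ratio of 41.8 (exact 95% interval 7.16 to 1684). TRAV16 had 0, 0, 2 and 1 against 10, 3, 17 and 16 (ratio 13.1, interval 4.20 to 65.7). TRAV8-5, a pseudogene, had 0, 0, 2 and 1 against 12, 8, 19 and 6 (ratio 12.8, interval 4.11 to 64.4). All 3 were called higher in the fit without a filter, with adjusted p-values of 0.000698, 0.00495 and 0.00398. TRAV12-3 had 0, 0, 1 and 0 counts in Control and 10, 6, 9 and 7 in DZNep (ratio 27.3, interval 4.56 to 1111, adjusted p = 0.00297). TRAV8-3 had 0, 1, 1 and 0 against 4, 13, 10 and 4 (ratio 13.2, interval 3.36 to 114.0, adjusted p = 0.00984). These 5 segments did not overlap between the groups.

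A pair of gamma V segments with more Control counts gave weaker differences. TRGV3 had 0, 5, 1 and 2 counts in Control and 11, 9, 11 and 5 in DZNep, at a log2 fold change of 1.93 (adjusted p = 0.0725 in the fit without a filter, 0.0393 with the replicate block). TRGV2 had 5, 2, 1 and 5 against 5, 7, 8 and 7, at a log2 fold change of 0.76 (adjusted p = 0.472). TRGV2 shared 95.2% of its aligned V exon with TRGV4, and TRGV3 shared 95.5% with TRGV5. Both also overlap TRG-AS1.

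The C segments encode the constant part of each chain, to which any joined V region is spliced, and their 6 members split by locus. TRGC1 (chr7:38257879-38265678, minus strand) had 3, 0, 1 and 2 counts in Control and 20, 8, 22 and 8 in DZNep, a log2 fold change of 2.91 (SE 0.76, adjusted p = 0.00748). TRGC1 overlaps TARP on the same strand, a gene made from the gamma C region that is known from prostate and breast, so that reads on shared exons may have been split or lost. TRGC2 had 1, 1, 0 and 0 counts in Control and 3, 0, 1 and 1 in DZNep, too few to separate the groups (adjusted p = 0.624).

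TRDC, the delta C segment (chr14:22462932-22465787), had no count in Control and 6, 9, 3 and 0 in DZNep, at least 5.12-fold higher. Its adjusted p was 0.0223 in edgeR and 0.0521 in DESeq2, and it overlaps TRD-AS1 on the opposite strand. TRAC, the alpha C segment (chr14:22547506-22552156), had 2, 4, 4 and 4 counts in Control and 9, 7, 12 and 12 in DZNep. The groups did not overlap, but with a log2 fold change of 1.32 (SE 0.61, adjusted p = 0.136) TRAC was not called.

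The beta C segments were the exception. TRBC2 (chr7:142801041-142802748) had 7, 5, 6 and 5 counts in Control and 2, 1, 0 and 2 in DZNep, without overlap. The ratio of the pooled CPM was 0.185 (exact 95% interval 0.0551 to 0.499), and the log2 fold change was -2.32 (SE 0.85). The adjusted p was 0.0565 in edgeR, 0.0554 with the replicate block and 0.0421 in DESeq2, so the call depended on the tool. TRBC1 had 3, 1, 0 and 1 counts in Control and 2, 0, 0 and 1 in DZNep (adjusted p = 0.627). The J segment TRBJ2-2, in the cluster just before TRBC2, had 2, 1, 1 and 1 counts in Control and none in DZNep, and was the other member whose DZNep libraries all lay below the Control libraries (adjusted p = 0.0965). TRBJ2-4 had 1, 0, 0 and 4 counts in Control and 0, 0, 0 and 2 in DZNep. Of the 5 beta J segments with counts, all had the higher summed level in Control, and of the 22 beta V segments with counts 16 had it in DZNep. These J and C counts of the beta locus are small, and no single call at this depth passed in edgeR.

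Along the chromosome, the V segments lie before the J segments by germline order at the 3 loci that have both. The exceptions, TRDV3 and TRBV30, had no count. Any V segment called higher in the fit without a filter therefore lay apart from the J segments, and the positions are only a description. Distances were measured from the first segment of each locus in the direction of the V segments. In the alpha/delta locus, which spans 930.3 kb, the 16 called V segments lay between 102 kb (TRAV3) and 586 kb (TRAV34), while the J segments began at 828 kb. With the replicate block 14 of the 16 kept their call, and the last of these was TRAV30 at 546.6 kb. DESeq2 also called 14, not calling TRAV34 (adjusted p = 0.0506) and giving TRAV17 no adjusted p. The 5 tested ones lay between 225 kb (TRAV8-2) and 511 kb (TRAV8-7). In the beta locus of 514.2 kb the 5 called V segments lay between 53.6 and 357.5 kb, with TRBV20-1 at 327.5 kb and the first J segment at 488 kb. The calls at both ends, TRBV7-2 and TRBV24-1, were lost with the replicate block (adjusted p = 0.0670 and 0.0713) and in DESeq2 (0.0845 and 0.103), and those of TRBV6-5 and TRBV7-4 with the block (0.0589 and 0.0578). In the gamma locus of 128.6 kb the 3 called V segments lay between 13.7 and 49.3 kb, and TRGC1 at 102.5 kb. In the gamma locus the 3 called V segments kept their call under both. Per kilobase of exon, TRAV8-2 had a mean of 2.40 CPM in DZNep and its next neighbour TRAV8-3 one of 0.523 CPM.

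**Figure D4:**
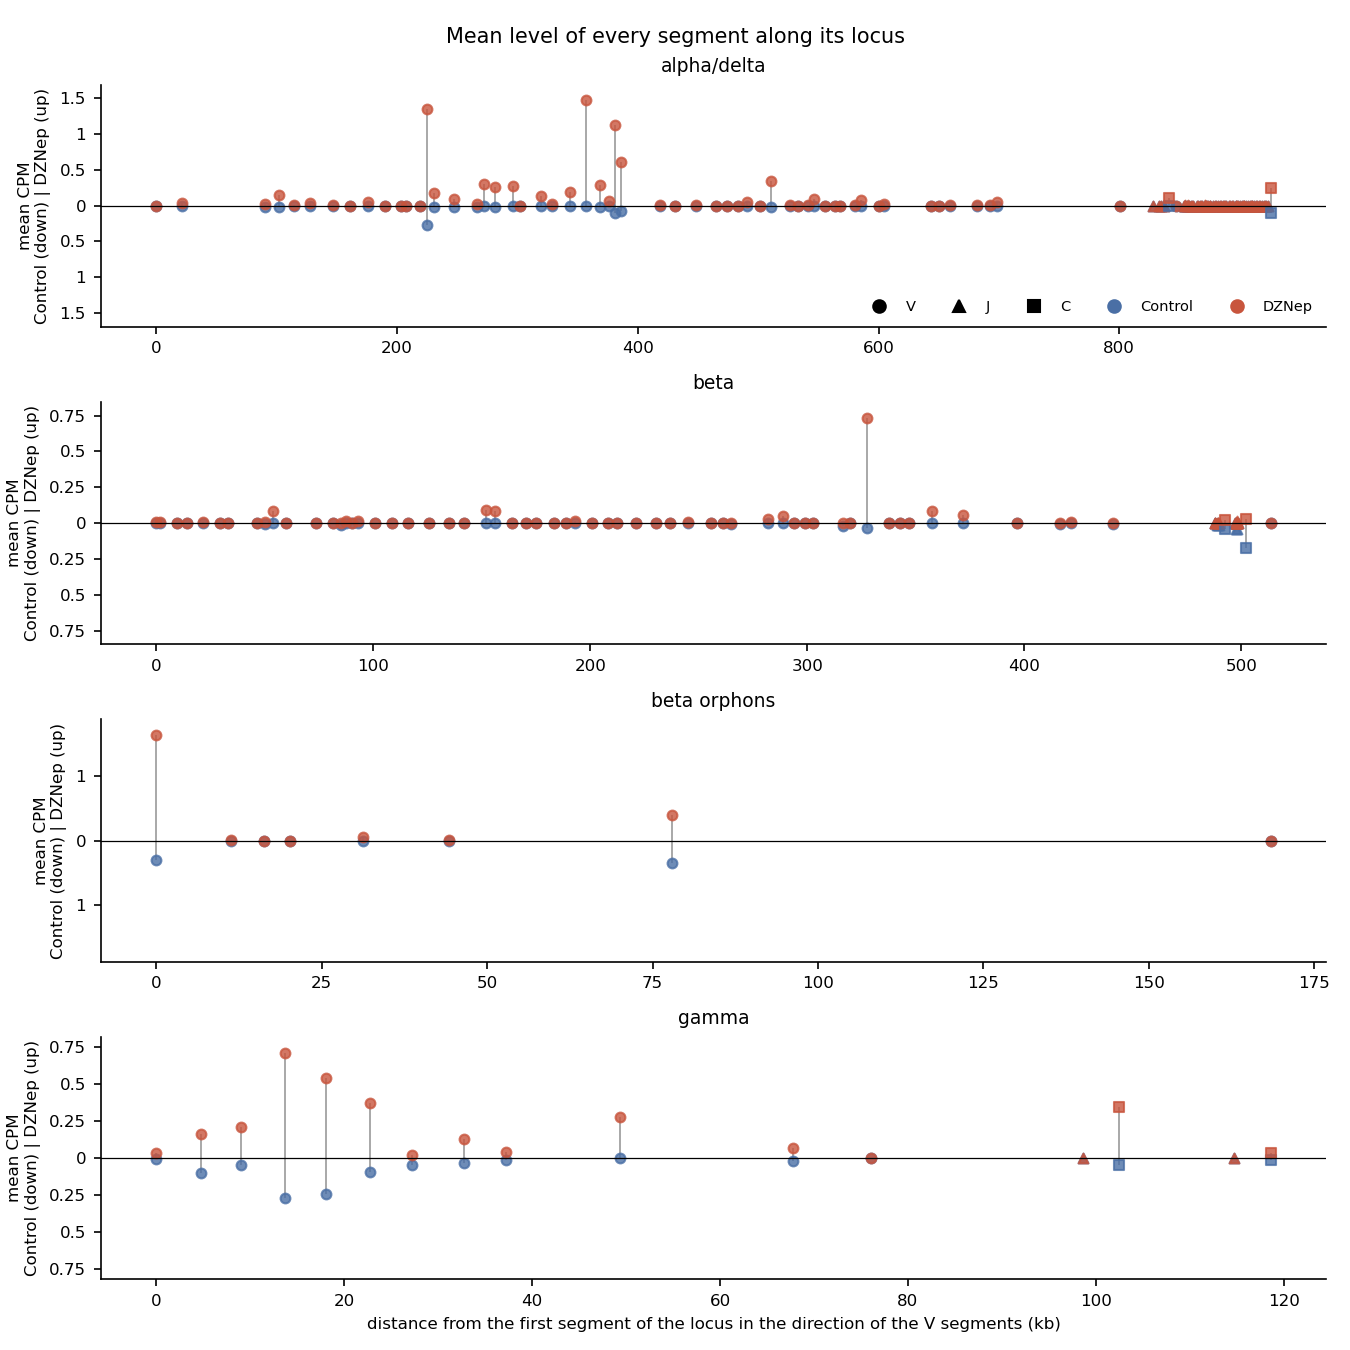
Mean CPM of every V (circle), J (triangle) and C (square) segment among the 222 against its distance from the first segment of the locus in kilobases, with DZNep plotted upward and Control downward from the zero line; each panel has its own scale. The highest DZNep values belong to V segments, the J segments lie near 0, and TRBC2 at the right end of the beta panel is higher in Control.

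Most genes of other kinds at the same places were not tested, because they did not pass the filter. Of 84 annotated genes within the loci or up to 200 kb beside them, not counting the receptor segments outside the rule, 28 were tested. Of these 28, 2 were called higher and 1 lower, beside 10.6% and 13.5% of all genes tested. Their median log2 fold change was 0.33, beside -0.03 over all genes tested. Inside the alpha/delta and beta loci 0 were tested. Of the 7 tested genes between the outermost segments edgeR, DESeq2 and limma called 0, and the replicate block called 1 higher. In edgeR 1 in each direction had an unadjusted p under 0.05. These were PTENP1 (log2 fold change 0.87, adjusted p = 0.00400) and TRG-AS1 (-0.84, adjusted p = 0.0105), which missed only the fold threshold. Beside the alpha/delta locus 0 of 8 tested genes were called by edgeR, DESeq2 or limma, and 3, all with the higher level in DZNep, had an unadjusted p under 0.05. These were CHD8, a chromatin remodeller (log2 fold change 0.69, adjusted p = 0.0235), TOX4 (0.66, adjusted p = 0.0189) and ABHD4 (0.50, adjusted p = 0.0287). DAD1, an oligosaccharyltransferase subunit next to the alpha enhancer, had a log2 fold change of 0.21 (adjusted p = 0.328). Of the 4 tested genes at the gamma locus 0 were called by any of the 3 tools, and 1 in each direction had an unadjusted p under 0.05. STARD3NL had a log2 fold change of 0.40 (adjusted p = 0.0418) and AMPH one of 0.52 (adjusted p = 0.196). Beside the beta locus MGAM, an intestinal maltase, was called higher, with 1, 0, 2 and 4 counts in Control and 18, 57, 47 and 34 in DZNep (log2 fold change 4.13, SE 0.64, adjusted p = 0.000629). EPHB6, on the other side of that locus, was not called (0.65, adjusted p = 0.0516), and TRPV6, a calcium channel, was below the filter with 8 Control and 50 DZNep counts. Beside the orphons, the water channel AQP3 was called higher (2.31, adjusted p = 1.32e-05) and CYP4F26P lower (-2.14, adjusted p = 0.000119), whereas UBE2R2 (0.38), NOL6 (0.49) and UBAP2 (-0.96) were not called. With the replicate block 3 of the neighbours were called higher and 2 lower. Below the filter, MGAM2 had 0 Control and 21 DZNep counts, KEL 7 and 45, and ENSG00000227301 0 and 27. ENSG00000272908 had 10 and 42, and ENSG00000258705 0 and 15. These and TRPV6 had every DZNep library above every Control library in CPM, and OR6E1P (25 and 2) had every one below. Of all genes below the filter, 5.96% lay above in this way and 2.71% below.

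Bases before the annotated start of each V segment were searched for 3 short motifs on both strands, within 300 bases, since V promoters are known to carry such elements. The conserved decamer of beta V promoters, with any base allowed at its variable positions, was found before 26 of 59 beta V segments (44.1%) and before 1.61% of 62654 annotated genes. Of the 57 alpha/delta V segments 2 had it. Within the beta locus it was found before 3 of 5 V segments called higher in either fit, 6 of 17 with counts but not called and 17 of 37 with no count. The octamer ATGCAAAT was found before 0 of the 26 V segments called higher in either fit and 2.41% of all genes, and TATAAA before 5 of the 26 (19.2%) and 18.8% of all genes. None of the 3 strings contains another, and a missing match says only that these letters are not in the window.

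Genes for the proteins that carry a T cell receptor to the surface and signal from it differed in both directions. Of the 12 genes of the receptor complex and co-receptors, 9 were below the filter and 3 were tested. Of these 3, 1 was higher and 1 lower, beside 10.6% higher and 13.5% lower among all genes tested. CD3G had no count in Control and 13, 17, 20 and 11 in DZNep, at least 17.3-fold higher (adjusted p = 0.000410). CD3E, below the filter, had no count in Control and 9, 21, 18 and 36 in DZNep, at least 23.9-fold higher, and CD3D had 0 counts in Control and 0, 1, 2 and 2 in DZNep. CD247, the zeta chain, had 4, 1, 7 and 1 counts in Control and 4, 3, 6 and 3 in DZNep, so its groups overlapped. CD8A, a co-receptor, was lower in DZNep, with 47, 70, 97 and 52 counts in Control and 36, 37, 32 and 35 in DZNep (log2 fold change -1.13, adjusted p = 0.00480).

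Of 28 genes of proximal signalling, 22 were tested, and 3 were higher and 1 lower, with a median log2 fold change of 0.34, beside 10.6% higher and 13.5% lower among all genes tested. With the replicate block ZAP70, the kinase recruited to the CD3 chains, was called higher as well (log2 fold change 1.47, adjusted p = 0.0200, against 1.32 and 0.0956 without it). LCK, the kinase that phosphorylates the CD3 chains, had 3, 0, 1 and 1 counts in Control and 13, 21, 16 and 15 in DZNep (log2 fold change 3.31, adjusted p = 0.00232). BCL10 (1.22, adjusted p = 0.000145) and VAV1 (1.04, adjusted p = 0.00428) were the others that rose, and the transcription factor NFATC1 fell (-1.51, adjusted p = 7.94e-05).

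Of 17 genes of V(D)J recombination and end joining, 15 were tested. Among these 15, edgeR and DESeq2 each called 0 higher and 1 lower, and limma called 1 higher and 0 lower. Over all genes tested, edgeR called 10.6% higher and 13.5% lower, so such small counts say little about the list. In each direction 3 of the 15 had an unadjusted p under 0.05, and 2 had an adjusted p under 0.05 in edgeR. PAXX, an end-joining factor, was lower (log2 fold change -1.19, adjusted p = 0.0367). With the replicate block, 1 of them was called higher, NHEJ1, another end-joining factor (log2 fold change 1.04, adjusted p = 0.000120), which was named after its value was seen. Without the block, LIG4 (log2 fold change 0.77, adjusted p = 0.00337) and NHEJ1 (0.97, adjusted p = 0.0389) were higher. ATM was lower (-0.94, adjusted p = 0.00139). LIG4, NHEJ1 and ATM missed only the fold threshold in that fit. RAG1, which cuts the DNA at the signals, had 15, 60, 69 and 33 counts in Control and 106, 95, 118 and 44 in DZNep, with overlapping groups (log2 fold change 0.85, adjusted p = 0.0733). RAG2, its partner, was below the filter, with 2, 0, 2 and 2 counts in Control and 6, 8, 13 and 7 in DZNep. The ratio of its pooled CPM was 4.83 (exact 95% interval 2.01 to 14.1). DNTT, which adds bases at the joints in lymphocytes, was also below the filter, with none in Control and 4, 1, 1 and 2 in DZNep. Both had every DZNep library above every Control library in CPM, as did 5.96% of all genes below the filter.

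Among 28 factors that bind receptor enhancers or mark the T lineage, 27 were tested and had a median log2 fold change of 0.15. Of these 27, 2 were called higher and 1 lower, beside 10.6% and 13.5% of all genes tested. ID3 (1.27, adjusted p = 0.000587), an inhibitor of E proteins, and STAT5A (1.24, adjusted p = 0.00863) were higher, and STAT5B (-1.38, adjusted p = 0.000169) was lower. The STAT5 proteins act below the interleukin 7 receptor, which is known for opening the gamma locus in T cell precursors.

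The immunoglobulin segments, which have the same V, J and C design in B cells, were counted in the same way for comparison. Of the 302 listed, 39 had a count, and they summed to 1059 counts in Control and 1088 in DZNep, with overlapping groups at 6.81 ± 4.36 and 6.70 ± 4.18 CPM (SD, n = 4 each). Of these counts IGKC held 67.9%, and replicate 1 stood apart in both groups, with immunoglobulin C sums of 1 and 8 counts against 209 to 273 in the other libraries. Immunoglobulin V segments had 298 counts in Control and 335 in DZNep, and immunoglobulin J segments had none. The V sums thus overlapped between the groups for immunoglobulin. The number of immunoglobulin V segments with a count did not, at 4, 10, 9 and 7 in Control and 17, 13, 20 and 15 in DZNep, or 6.04 ± 1.73 and 12.8 ± 2.34 (SD, n = 4 each) after thinning to the shallowest library. In that number the immunoglobulin V segments were higher in DZNep, as were those of the T cell receptor. No difference between the families was tested.

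Across the 8 libraries, the 3 genes most like each of the 9 tested segments with at least 80 counts, in log2 CPM, included no receptor segment. The points fall into the same pair of groups for every gene. For the segments called higher, a high r therefore mainly reflects the step between Control and DZNep. It is given as a description over 8 libraries that differ in depth. The nearest gene was ENSG00000272256 for TRAV8-6 (r = 0.997), ZNF285BP for TRAV18 (0.996), GTSE1 for TRBV20-1 (0.996), CFAP99 for TRBV20OR9-2 (0.996), CDC20B for TRAV8-2 (0.993), GNAI2 for TRGV4 (0.989), ENSG00000258101 for TRAV19 (0.994) and SLC1A3-AS1 for TRGV5 (0.971). For TRBV26OR9-2, which did not differ between the groups in its own test, it was STEAP1B (r = 0.995). The log2 fold change of STEAP1B was 0.16, so this r does not reflect such a step. The number of genes with r over 0.95 ranged from 35 for TRGV5 to 784 for TRAV8-6, out of 19170.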

How the data were processed

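RNAseq libraries of HEK293T cells, 4 Control and 4 DZNep, were grouped by their labels. The study's methods describe RNA extraction and sequencing by a service provider, with paired 150 bp reads, trimmed with Trimmomatic 0.36, mapped to GRCh38 with STAR 2.5.2b and counted on exons as unique reads with featureCounts (Subread 1.5.2). The annotation release, library type and strand setting are not given in the sources used here. The authors deposited raw counts for 57500 genes. Their other deposited table is a normalized signal, each count divided by 1 size factor per library, for the 19118 genes over 80 counts. Only its size factors were used, to scale the counts of all 19171 genes for limma. All per-sample columns were mapped to samples (0 were not).

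Symbols and coordinates came from GENCODE on GRCh38, with symbols for 56410 identifiers, and sequences from the same build. Analyses ran in R 4.3.3 with DESeq2 1.42.0, limma 3.58.1 and edgeR 4.0.16. Members were tested by the edgeR quasi-likelihood method (TMM, filterByExpr, 19171 genes, Benjamini-Hochberg adjustment, 8 libraries, no block), and the same test on all 40246 genes with at least 1 count served members below the filter. In simulated data, this test recovered 185 of 200 genes changed by a log2 fold of 2, with 9 false calls among 19171 genes. Without the filter it recovered 191 of 200, with 51 false calls among 38339 genes. All changed genes had higher mean counts than most members, so recovery at the level of those members was not measured. Sums, numbers of detected segments and locus maps are descriptions without a test. Intervals are exact (Clopper-Pearson, 95%), and both they and the floor of 3 counts over a group cover counting error only. The nearest-gene search used log2 CPM with a prior count of 2 over members with at least 80 counts.

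Genes named are every member that passed the filter, all C segments, the 12 members below the filter with the highest summed count, called neighbours and the 3 neighbours of each locus with the highest mean count, up to 5 called genes of each pathway list, and CD3D, CD3E, CD3G, CD247, RAG1, RAG2 and DNTT. TRBJ2-2, TRBJ2-4, TRAV3, TRAV17, TRAV30, TRAV34, TRBV6-5, TRBV7-2, TRBV7-4, TRBV24-1, TRGV6, the letter-named segments, ABHD4, CD79B, ZAP70 and NHEJ1, and the family members set beside others for identity, were named after their values were seen. So were MGAM2, KEL, OR6E1P, ENSG00000227301, ENSG00000272908, ENSG00000258705, TRDV3, TRBV30, LIG4, ATM, PTENP1 and LYZ. The members and lists were chosen with earlier results of these data known. Alternatives were DESeq2, limma on log2(scaled count + 1), other normalizations and filters, the replicate block, leaving out libraries, detection at 3 or 5 counts, and windows of 50 and 500 kb. After subtraction of the group mean, the 2 libraries sharing a number correlated (0.136, 0.492, 0.429 and 0.673 for numbers 1 to 4), which was taken as pairing. The calls reported first nevertheless come from fits without a block, and the replicate block is an alternative. With it, 13 of the 80 members below the filter were called higher, against 18 without it. The labels do not state separate cultures, so p-values measure the spread between these libraries.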

Additional observations from a re-analysis of the deposited data

Results flagged for a closer look

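In 70 groups of 4 libraries, over the named members and the summed CPM by locus and segment type, 9 groups had 1 library whose gap to the nearest other exceeded Dixon's 95% limit. Chance flags about 1 in 20 groups, and the values of related members are not independent. In 4 of the 9, the gap was made by 1 or 2 counts in a single Control library with 0 in the others. These were TRAV8-4 and TRAV12-3 (0.024 CPM each in Control replicate 3), TRAV8-7 (0.048 CPM in Control replicate 3) and TRAV8-6 (0.0288 CPM in Control replicate 4). The beta J sum of DZNep replicate 4, 0.0586 CPM, was likewise set by 2 counts against 0 in the other DZNep libraries.

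The other 4 rested on more counts. TRBV20-1 reached 1.11 CPM in DZNep replicate 4, with 0.646 CPM in the nearest other DZNep library. TRAV19 had 0.205 CPM in Control replicate 1, with 0.0475 CPM in the nearest other. TRBC2 had 0.287 CPM in Control replicate 1, with 0.144 CPM in the nearest other, and with it the beta C sum was 0.41 CPM, with 0.173 CPM in the nearest other. Control replicate 1 was the shallowest library, with 25043058 counts, so each count weighs more there.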

How the results depend on the processing

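The count of 10 members called higher and 0 lower was within 1.5 times, with 7 to 10 higher and 0 lower, under DESeq2, limma, both other normalizations, the replicate block, the adjusted p alone and the filter at over 80 counts. It was 27 without a filter and 0 when at least 10 counts were required in every library, since no member had that many. Leaving out 1 library gave 8 to 9 calls, and leaving out both libraries of numbers 1 and 4, or of 2 and 3, chosen after seeing the data, gave 9 each. Of the 80 members below the filter, 18 were called higher, between 11 (without DZNep replicate 2) and 19 (without Control replicate 2) with 1 library left out, and DESeq2 called 1 lower, TRBC2. The replicate block also called 1 recombination gene higher, NHEJ1, and 2 neighbours lower, and it changed no other count by more than 1.5 times. Windows of 50 and 500 kb gave 0 and 7 neighbours higher, and 500 kb gave 5 lower.

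DZNep exceeded Control by 30.25 V segments with a count per library, by 24.5 at 3 counts and by 19.25 at 5, while for J segments the difference was -2.25, -0.25 and 0. Without the member of the highest count, the DZNep minus Control difference of summed CPM became 5.775 for alpha/delta V, 0.4958 for beta V, 0.1042 for orphon V, 1.228 for gamma V, -0.01138 for alpha/delta J (0.003268 with all), 0.1003 for alpha/delta C, -0.02463 for beta C and 0.01475 for gamma C. Over members below the filter alone, chosen after seeing the data, it was 2.413 for alpha/delta V, 0.4958 for beta V, 0.05981 for orphon V and 0.6586 for gamma V. With library sizes alone alpha/delta C gave 0.2626. Leaving out 1 library moved alpha/delta J between -0.01671 and 0.01427.

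Of the single values, the log2 fold change of TRBV26OR9-2 ran from -0.2914 to 0.6649 with 1 library left out and was -0.2925 without numbers 1 and 4, and that of TRBC1 ran from -1.826 to 0.09988. Of 185 values for the 11 tested members, 166 kept their direction and their side of the threshold, 15 lost the call (TRGV4 and TRGV5) and 4 changed sign. Depth limits the J and C results, which rest on at most 64 counts a segment. The cause of these differences was not tested.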
